A study of Mus musculus with 6 samples.

Results

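Transcripts of 36 genes that add, remove or read acetyl groups on histones were examined in mouse liver. The samples are described as lacking the acetyl-CoA synthetase ACSS2 in hepatocytes or as floxed controls. The genes were taken by symbol and fall into 14 writers (acetyltransferases), 18 erasers (deacetylases) and 4 readers (bromodomain proteins). All 36 were found among the 16135 genes of the deposited expression table. Of them, 30 averaged 1 FPKM or more across the 6 libraries and entered the test across all genes, and 6 lay below that filter and were described by their values only. FPKM is the number of sequenced fragments of a gene, divided by a gene length and by the library's total.

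Whole liver was taken from 3 samples labelled ACSS2-flox, called the controls here, and 3 labelled ACSS2-HKO, called the knockouts, and the series' design text describes a hepatocyte-specific knockout. Both genotypes had received the Lieber-Decarli ethanol liquid diet, in which alcohol is part of the food, over 10 days, and then a single ethanol binge, so no value here compares ethanol with its absence. The promoter that drives Cre, the strain, sex and age, and whether the 3 samples of a genotype came from separate animals, are not stated in the labels. The p-values therefore measure only the spread among these samples, part of which may be technical.

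Histone acetyltransferases transfer the acetyl group of acetyl-CoA to lysines of histone tails, which weakens the hold of the tails on DNA and creates docking sites for bromodomains. Zinc-dependent deacetylases (HDACs) remove the group by hydrolysis, and sirtuins remove it with NAD as a co-substrate. ACSS2 makes acetyl-CoA from acetate, the end product of ethanol oxidation in the liver, in the cytosol and the nucleus. The writers draw on this nucleocytosolic pool, and mitochondria keep a pool of their own. The comparison asks which transcripts of this enzyme system differ between the samples labelled ACSS2-HKO and those labelled ACSS2-flox.

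The libraries held 33717125 to 39474527 fragments, recovered from the FPKM values. Control replicate 1 and knockout replicate 3 lay far from the other 4 libraries: on the first principal component, which held 47.2% of the variance, they lay at -47.7 and 27.6, and the other libraries lay between 2.51 and 8.49. Acss2 itself (chromosome 2, 155517948 to 155585724, GRCm38) read 87.8, 61.5 and 58.5 FPKM in the controls and 50.6, 38.4 and 45.7 in the knockouts. Its groups did not overlap, in the direction of the labels, with a log2 fold change of -0.60 ± 0.21 (SE) and a limma adjusted p of 0.637. Without control replicate 1 that fold change was -0.418. The value covers the whole gene and all liver cells, so it does not measure the deleted part in hepatocytes alone. In bulk tissue, fewer cells of a type and less RNA per cell cannot be told apart.

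No writer, eraser or reader passed the test. At a Benjamini-Hochberg adjusted p under 0.05, limma called 0 of the 30 tested members and 0% of all 9818 genes tested. At an unadjusted p under 0.05 it again called 0 members in either direction, where 6.09% of all genes were called higher and 1.5% lower in the knockouts. Fold changes here are on the log2(FPKM + 1) scale, knockout minus control, and ± gives the standard error unless SD is named. On this scale a low gene shows a smaller difference than its FPKM ratio.

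Only 3 members had groups that did not overlap. The deacetylase genes Hdac11 and Sirt3 read lower in every knockout library than in any control library (2 of 30 members, or 6.67%, where the share of all genes was 2.94%). The bromodomain gene Brd9 read higher in every knockout library (1 of 30, or 3.33%, where the share of all genes was 12.5%). The exact permutation p of each of these 3 was 0.1 (two-sided, n = 3 per group), the smallest that 20 arrangements of the 6 libraries allow.

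On the log2(FPKM + 1) scale the differences were small in size. All 30 members had a 95% interval of the log2 fold change inside -1 to 1, and so did 81.7% of all genes tested. That is within a 2-fold difference of FPKM + 1 either way, which is a looser bound on the FPKM of a low gene. The lowest bound among the members was -0.88 (Hdac11) and the highest 0.91 (Ep300). With a pseudocount of 0.1 in place of 1, and with voom on the fragments, this held for 25 of the 30 members. With median-ratio scaling it held for 27, and with knockout replicate 2 left out for 24, the fewest of any setting with 30 tested members.

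As deposited, 17 of the 30 members had positive and 13 negative fold changes, with a median of 0.02, where the median of all genes was 0.10. Of all 9818 genes tested, 6483 were positive and 3335 negative. The deposited scale itself is shifted: after median-ratio scaling, which multiplies each library by a factor that brings its typical gene to a common level, the median of all genes was -0.04. On that scale 9 members were positive and 21 negative, where 4331 of all genes were positive and 5487 negative. Sign counts of role groups and lists below are to be read beside these counts of all genes. The median of the members on that scale was -0.11. The median was also -0.11 with trimmed means of M-values and with quantile normalization. Where a member's fit to all 6 libraries is given, its fold change is therefore also printed relative to the median gene, which lies 0.10 above 0 as deposited.

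**Figure D1:**
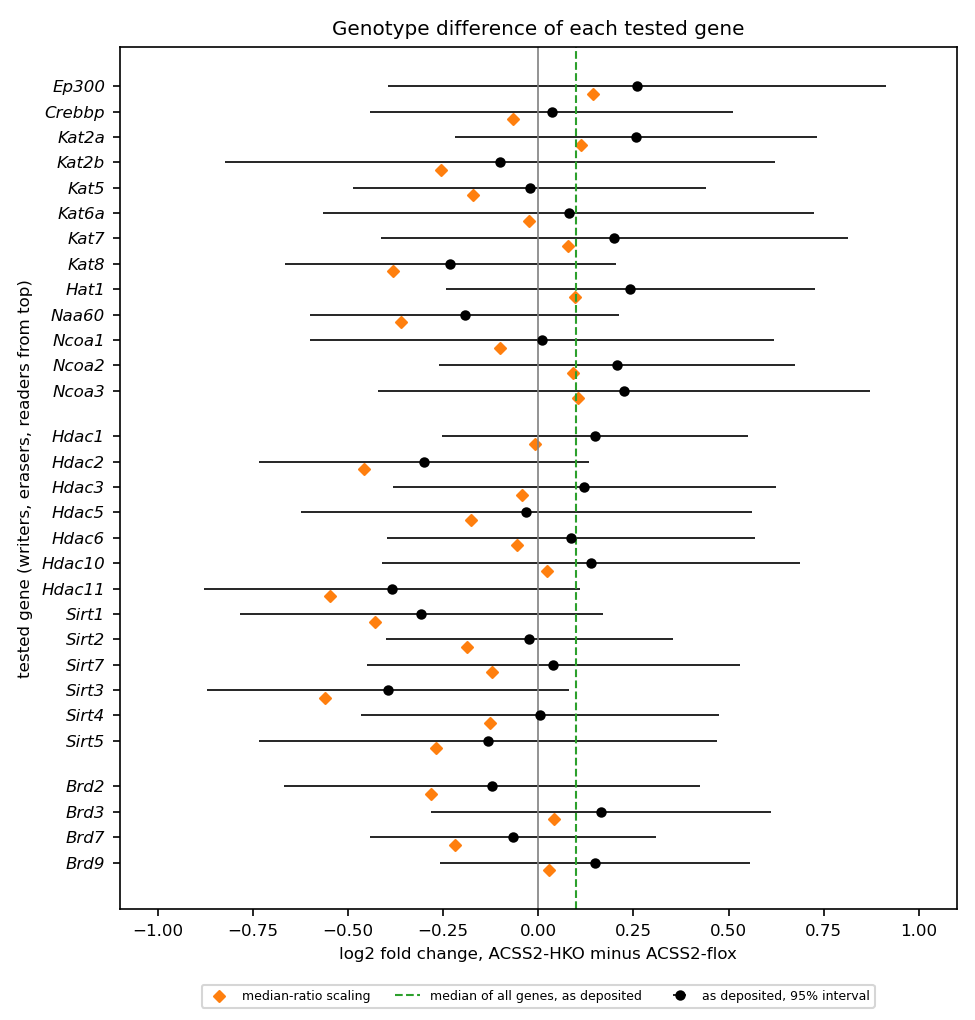
Log2 fold change of the 30 tested genes (ACSS2-HKO minus ACSS2-flox, n = 3 libraries each). Black points are the fit to the deposited values with 95% intervals, orange diamonds the fold change after median-ratio scaling, the grey line 0 and the green line the median of all genes tested as deposited (0.10). All black intervals lie between -0.88 and 0.91 and include 0, and the diamonds lie to the left of the points.

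With median-ratio scaling 3 members, all lower in the knockouts, had an unadjusted limma p under 0.05 (10% of the 30, where 3.53% of all genes were lower and 3.23% higher). They were Sirt1, Sirt3 and the acetyltransferase gene Kat8, with unadjusted limma p-values of 0.025, 0.034 and 0.039 and an adjusted p of 0.711 for each. The groups of 5 members then did not overlap, again all lower (16.7%, where 7.65% of all genes were lower and 6.37% higher). These were the same 3 with Hdac11 and the amino-terminal acetyltransferase gene Naa60, and Brd9 overlapped. In control replicate 1 the scaling raised Kat8 from 7.06 to 9.05 and Naa60 from 40.1 to 51.4. It lowered both genes in each knockout library. The share of all genes past the adjusted threshold was 0% on this scale too.

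The levels of the members spanned a wide range, and these levels are per length. Sirt3 and Naa60 stood highest, at 43.9 ± 9.30 and 42.7 ± 5.32 FPKM (SD over the 6 libraries). Then came Sirt2 (25.2 ± 1.87), Hdac11 (22.1 ± 4.51), Brd2 (19.6 ± 4.38), Hdac3 (17.6 ± 3.11), Kat2b (15.7 ± 4.73), Sirt7 (12.9 ± 2.24), Hdac1 (11.6 ± 1.43) and Hdac2 (10.4 ± 1.99), which makes 10 members at or above 10 FPKM. Another 20 lay between 1 and 10 FPKM. In this order, 31 of the 35 pairs of neighbours had overlapping ranges over the libraries. The 4 gaps lay between Naa60 and Sirt2, Kat5 and Kat7, Crebbp and Hdac7, and Sirt6 and Hdac4, so the order is resolved into tiers rather than ranks.

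**Figure D2:**
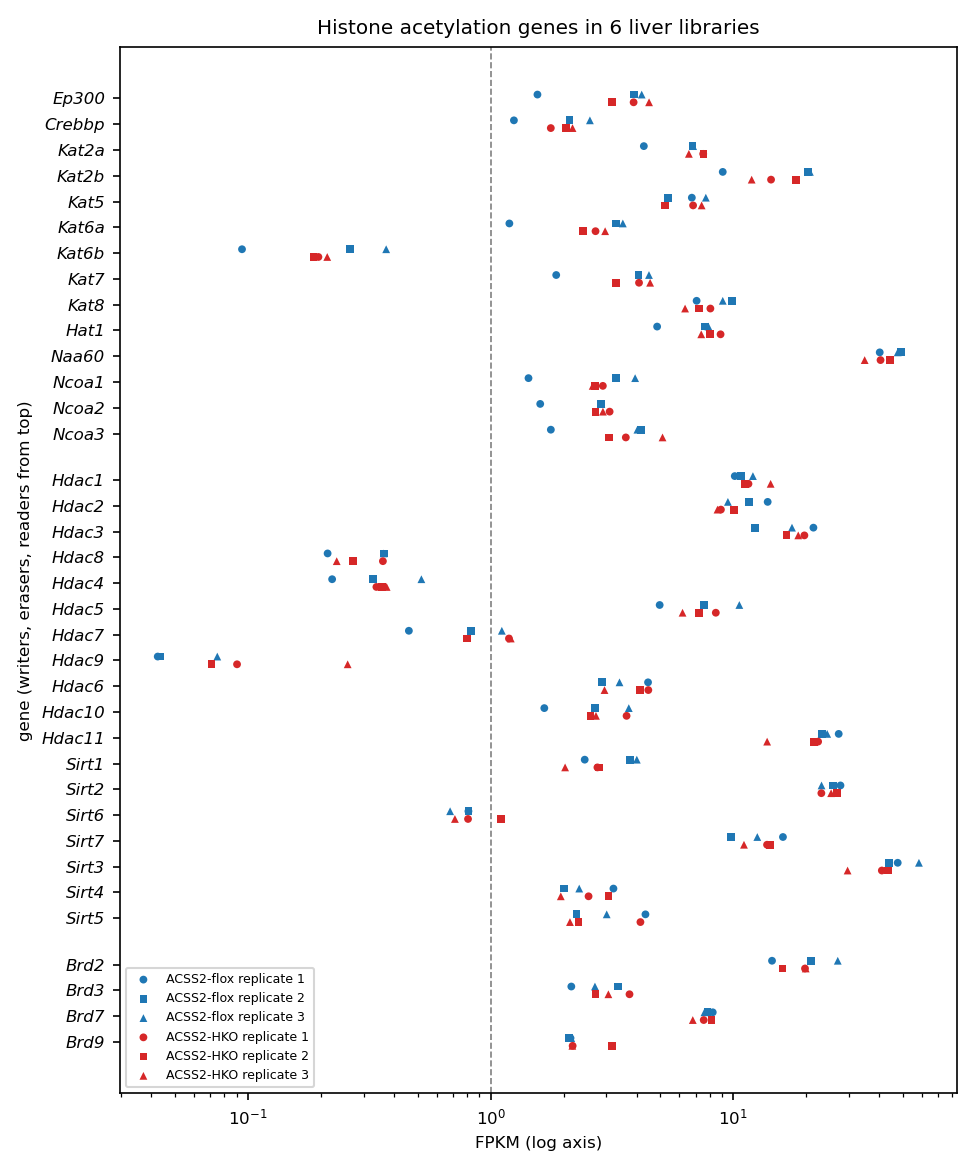
FPKM of the 36 genes in each of the 6 libraries (log axis), with writers, erasers and readers from top to bottom. Blue marks are ACSS2-flox and red marks ACSS2-HKO, circles, squares and triangles are replicates 1, 2 and 3, and the dashed line is the filter at 1 FPKM. Most rows show red and blue marks mixed, and the blue circle, control replicate 1, stands alone on the left in many writer rows.

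The writers began with p300 and CBP, paralogous coactivators that acetylate histone H3 at enhancers. Ep300 (chromosome 15, 81585351 to 81652077), which encodes p300, read 1.56, 3.90 and 4.19 FPKM in the controls and 3.88, 3.16 and 4.50 in the knockouts. A single low library, control replicate 1, lay apart, and the other 5 values overlapped. The means were 3.22 ± 1.44 and 3.85 ± 0.668 FPKM (SD, n = 3). Limma gave a log2 fold change of 0.26 ± 0.29 (0.16 relative to the median gene) and an adjusted p of 0.853, and it was -0.067 without control replicate 1. Crebbp, which encodes CBP, showed the same low library at 1.25 FPKM, against 2.11 and 2.57 in the other control libraries and 1.77 to 2.18 in the knockouts.

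GCN5 and PCAF are the acetyltransferases of the SAGA and ATAC coactivator complexes. Kat2a (chromosome 11, 100704746 to 100712465), which encodes GCN5, read 4.28, 6.80 and 6.83 FPKM in the controls and 7.52, 7.54 and 6.56 in the knockouts. Again control replicate 1 was the lowest of all libraries, and the groups overlapped. By limma the log2 fold change came to 0.26 ± 0.21 (0.16 relative to the median gene), adjusted p 0.785, and 0.068 without that library. Kat2b, which encodes PCAF, read 9.05, 20.3 and 20.7 FPKM in the controls and 14.3, 18.1 and 11.9 in the knockouts. Its knockout values thus lay between the low control library and the other control libraries. Without control replicate 1 Kat2b had a log2 fold change of -0.47 ± 0.19 with an unadjusted limma p of 0.045 and an adjusted p of 0.503.

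The MYST family supplies the catalytic subunits of several nuclear complexes. Kat8 (chromosome 7, 127912516 to 127925837), also known as MOF, is the main enzyme for acetylation of histone H4 lysine 16. It read 7.06, 9.89 and 9.05 FPKM in the controls and 8.05, 7.22 and 6.33 in the knockouts. The lowest control library lay among the knockout values, so the groups overlapped as deposited. The fit gave -0.23 ± 0.19 (-0.33 relative to the median gene) on the log2 scale, at a limma adjusted p of 0.788. After median-ratio scaling Kat8 read 9.05, 9.92 and 8.48 in the controls and 7.57, 6.83 and 6.01 in the knockouts, no longer overlapping, with a log2 fold change of -0.38 ± 0.15. Its fold change was negative under all 20 alternative settings and its unadjusted p was under 0.05 in 3 of them. It was -0.140 without control replicate 2, -0.153 without knockout replicate 3 and -0.357 without control replicate 1. For every member the alternative settings draw on the same 6 libraries. Changes of the filter, the variance trend or the replicate block leave a fold change as it was. Counts of settings are therefore not counts of independent results.

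The remaining MYST genes showed overlapping groups. Kat5, which encodes TIP60, the enzyme of the NuA4 complex, read 5.38 to 7.71 FPKM in the controls and 5.23 to 7.41 in the knockouts. Kat7, which encodes HBO1, read 1.86, 4.06 and 4.49 FPKM against 4.09, 3.28 and 4.54. Kat6a, which encodes MOZ, read 1.20, 3.29 and 3.51 FPKM against 2.71, 2.41 and 2.96. In Kat6a and Kat7 the lowest of the 6 values was again that of control replicate 1.

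Hat1 and Naa60 act largely outside chromatin, Hat1 on newly made histone H4 and NAA60 on amino termini of membrane proteins at the Golgi. Hat1 (chromosome 2, 71388958 to 71441622) read 4.86, 7.66 and 7.90 FPKM in the controls and 8.86, 8.02 and 7.38 in the knockouts. The groups overlapped and the low control library lay apart. Limma gave a log2 fold change of 0.24 ± 0.21 (0.14 relative to the median gene) and an adjusted p of 0.795, and 0.047 without control replicate 1. Naa60 read 40.1, 49.1 and 47.6 FPKM in the controls and 40.4, 44.1 and 34.8 in the knockouts. It was the most abundant writer in every library, and its groups overlapped as deposited and separated after median-ratio scaling.

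The p160 coactivators bind ligand-bound nuclear receptors and bring p300 and CBP to them. Ncoa3 (chromosome 2, 165992636 to 166073242) read 1.77, 4.15 and 4.03 FPKM in the controls and 3.61, 3.06 and 5.11 in the knockouts. Ncoa1 read 1.43, 3.29 and 3.94 FPKM against 2.90, 2.70 and 2.63, and Ncoa2 read 1.60, 2.84 and 2.86 FPKM against 3.09, 2.71 and 2.90. All 3 had their lowest value in control replicate 1, and the groups overlapped. Ncoa3 had the largest difference of the trio, a log2 fold change of 0.22 ± 0.28 (0.13 relative to the median gene) with a limma adjusted p of 0.873, and it was -0.068 without control replicate 1.

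Over the 13 tested writers the median log2 fold change was 0.08 as deposited, with 9 positive and 4 negative, and turned to -0.02, with 6 positive and 7 negative, after median-ratio scaling. The summed FPKM of all 14 writers was 82.9 in control replicate 1, 123 and 126 in the other control libraries, and 108, 110 and 99.4 in the knockouts. The spread within the controls was thus wider than the distance between the genotypes.

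Among the erasers, the class I HDACs encoded by Hdac1, Hdac2 and Hdac3 are the nuclear enzymes of the NuRD, Sin3, CoREST and NCoR complexes. Hdac2 (chromosome 10, 36974544 to 37001889) read 13.9, 11.6 and 9.50 FPKM in the controls and 8.89, 10.1 and 8.61 in the knockouts. The lowest control value lay below the highest knockout value, so the groups overlapped. By limma the log2 fold change came to -0.30 ± 0.19 (-0.40 relative to the median gene), adjusted p 0.720. It was negative under all 20 alternative settings, but -0.177 without control replicate 1 and -0.135 without both distant libraries. Hdac1, the paralog that shares most complexes with Hdac2, read 10.1, 10.7 and 12.0 FPKM in the controls and 11.5, 11.1 and 14.3 in the knockouts. Hdac3, the enzyme of the nuclear receptor corepressors NCoR and SMRT, read 21.4, 12.3 and 17.5 FPKM against 19.6, 16.6 and 18.5. The ratio of Hdac2 to Hdac1 was 1.37, 1.08 and 0.789 in the controls and 0.770, 0.906 and 0.604 in the knockouts, and the groups overlapped (exact permutation p = 0.2, two-sided, n = 3 per group).

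Class IIa HDACs shuttle between nucleus and cytoplasm and have weak catalytic activity of their own. Only Hdac5 (chromosome 11, 102194432 to 102230166) passed the filter, at 4.97, 7.60 and 10.6 FPKM in the controls and 8.47, 7.21 and 6.18 in the knockouts. The control values enclosed those of the knockouts. The fit gave -0.03 ± 0.26 (-0.13 relative to the median gene) on the log2 scale, at a limma adjusted p of 0.981, and with 1 library left out it lay between -0.278 and 0.200.

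The class IIb enzymes are the cytoplasmic tubulin deacetylase HDAC6 and the polyamine deacetylase HDAC10. Hdac6 read 4.45, 2.87 and 3.40 FPKM in the controls and 4.47, 4.14 and 2.95 in the knockouts. Hdac10 (chromosome 15, 89123307 to 89128700) read 1.66, 2.69 and 3.71 FPKM against 3.63, 2.58 and 2.72. Both genes had overlapping groups, and Hdac10 had a log2 fold change of 0.14 ± 0.24 (0.04 relative to the median gene) with a limma adjusted p of 0.912, or -0.078 without control replicate 1.

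Hdac11, the only class IV enzyme and an efficient remover of long fatty acyl groups from lysine, was among the most abundant erasers. Hdac11 (chromosome 6, 91156665 to 91174692) read 27.2, 23.2 and 24.4 FPKM in the controls and 22.4, 21.5 and 13.8 in the knockouts. The groups did not overlap, and knockout replicate 3 lay well below the other libraries. The knockout mean was 0.771 of the control mean (19.2 ± 4.73 against 24.9 ± 2.04 FPKM, SD, n = 3). Limma gave a log2 fold change of -0.38 ± 0.22 (95% interval -0.88 to 0.11, and -0.48 relative to the median gene), with an unadjusted p of 0.110 and an adjusted p of 0.686. Without knockout replicate 3 it was -0.174. It was negative under all 20 alternative settings, and its unadjusted p was under 0.05 in 0 of them.

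Sirtuins couple deacylation to the cleavage of NAD, and SIRT3, SIRT4 and SIRT5 work in mitochondria. Sirt3 (chromosome 7, 140863666 to 140882309), the main mitochondrial deacetylase, which also activates the mitochondrial acetyl-CoA synthetase, read 47.6, 43.9 and 58.2 FPKM in the controls and 40.9, 43.3 and 29.6 in the knockouts. The groups did not overlap, though the lowest control value and the highest knockout value lay close together. The knockout mean was 0.761 of the control mean (37.9 ± 7.34 against 49.9 ± 7.43 FPKM, SD, n = 3). Limma gave a log2 fold change of -0.39 ± 0.21 (95% interval -0.87 to 0.08, and -0.49 relative to the median gene), with an unadjusted p of 0.092 and an adjusted p of 0.675. It was negative under all 20 alternative settings, and was -0.229 without knockout replicate 3. Its unadjusted limma p was under 0.05 in 4 of the settings, the 3 other scalings and the length correction, which all rescale the same libraries.

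Sirt1 (chromosome 10, 63319005 to 63381704), the nuclear sirtuin that deacetylates histones and regulators of liver lipid and glucose metabolism, read far lower than Sirt3. It read 2.44, 3.76 and 4.004 FPKM in the controls and 2.76, 2.81 and 2.03 in the knockouts. The groups overlapped only through control replicate 1. The knockout mean was 0.744 of the control mean (2.53 ± 0.436 against 3.40 ± 0.840 FPKM, SD, n = 3). Limma gave a log2 fold change of -0.31 ± 0.21 (-0.41 relative to the median gene) and an adjusted p of 0.736. It was negative under all 19 alternative settings that kept the gene, with an unadjusted p under 0.05 in 7 of them, and the adjusted p over those settings ran from 0.330 to 0.9995. Without control replicate 1 the fold change was -0.475, and without knockout replicate 3 it was -0.201. After median-ratio scaling Sirt1 read 3.13, 3.77 and 3.75 in the controls and 2.59, 2.65 and 1.93 in the knockouts.

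**Figure D3:**
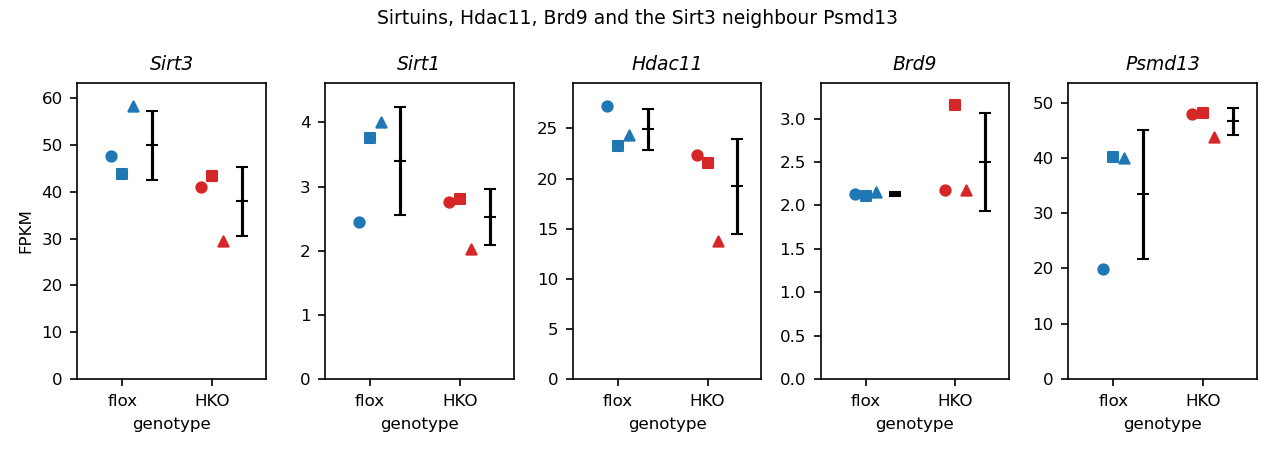
FPKM of Sirt3, Sirt1, Hdac11, Brd9 and the Sirt3 neighbour Psmd13 by genotype. Circles, squares and triangles are replicates 1, 2 and 3, and the bars are the mean with its SD (n = 3). Sirt3 and Hdac11 lie lower and Brd9 and Psmd13 higher in every knockout library, and Sirt1 overlaps at control replicate 1.

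The other sirtuin genes had overlapping groups. The cytosolic Sirt2 was steady, at 27.6, 25.7 and 23.1 FPKM in the controls and 23.1, 26.7 and 25.3 in the knockouts. Sirt7, the nucleolar member, read 16.02, 9.82 and 12.6 FPKM against 13.8, 14.2 and 11.1. Of the mitochondrial pair, Sirt4 read 3.21, 2.01 and 2.32 FPKM against 2.53, 3.06 and 1.95, and the desuccinylase gene Sirt5 read 4.35, 2.26 and 3.01 FPKM against 4.14, 2.30 and 2.12. Over the 6 tested sirtuins the median log2 fold change was -0.08, with 2 positive and 4 negative, and -0.23, with 0 positive and 6 negative, after median-ratio scaling. The 7 tested HDACs had 4 positive and 3 negative, with a median of 0.09, which turned to 1 positive and 6 negative, with a median of -0.05, on that scale. For all 13 tested erasers the count was 6 positive and 7 negative as deposited, and 1 and 12 after that scaling, with medians of -0.02 and -0.18. That scaling raised control replicate 1: Sirt3 went from 47.6 to 61.0 there, and Sirt2 from 27.6 to 35.4. All tested erasers are shorter than 5000 bases. The 20 tested members of that length had a median deviation of 0.03 in that library from the other controls, as deposited. The part of the scaling factor in these signs was not tested.

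Sirt3 and Sirt1 kept a like ratio in most libraries, 19.5, 11.7 and 14.5 in the controls and 14.9, 15.4 and 14.6 in the knockouts (exact permutation p = 0.9, two-sided, n = 3 per group). Sirt3 lies head to head with Psmd13, which encodes a regulatory subunit of the proteasome. In RefSeq the 2 gene starts are 84 bases apart on opposite strands. In GENCODE M21 an annotated first exon of Psmd13 begins at 140881968, so the 2 genes share 342 bases. The labels do not say whether the counting used strand, and fragments from the shared stretch could have gone to either gene. Psmd13 read 19.9, 40.2 and 40.02 FPKM in the controls and 47.9, 48.1 and 43.8 in the knockouts, without overlap and in the direction opposite to Sirt3. By limma the log2 fold change came to 0.54 ± 0.27, adjusted p 0.670, and it was 0.210 without control replicate 1. The ratio of Sirt3 to Psmd13 was 2.39, 1.09 and 1.45 in the controls and 0.854, 0.900 and 0.675 in the knockouts. With Sirt3 lower and Psmd13 higher in every knockout library, the groups of this ratio could not overlap, so it is not a separate result. Psmd13 was chosen for its position after the values of Sirt3 were known.

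The stretches before the RefSeq starts of Sirt1 and Kat8 are shown because these genes and Sirt3 were the members with an unadjusted p under 0.05 after median-ratio scaling. Each window runs from base 250 to base 16 before the RefSeq start, 235 bases in GRCm38.p6, at chr10:63339051-63339285 on the minus strand for Sirt1 and at chr7:127912267-127912501 on the plus strand for Kat8. Neither window holds an exon annotated in GENCODE M21, and only such windows are shown. The stretch before the RefSeq start of Sirt3 holds that of Psmd13 and is left out. The Sirt1 window lies inside the gene span given above: 3 of its 4 annotated coding transcripts start just downstream, at 63339032 or 63339035, and 1 starts upstream, at 63381704. Of the 2 annotated coding transcripts of Kat8, 1 starts just downstream of its window, at 127912516, and the other at 127914155. Capitals mark matches on either strand. The letters searched were CACGTG for the E-box, which bHLH factors such as CLOCK and MYC bind, and GGGCGG for the GC box of SP1. For the cAMP response element they were TGACGTCA, and for the core of the NRF1 site GCGCATGC. The ETS motif was read as CCGGAAG, and the CCAAT box by its own letters. None of these motifs overlaps another kind here, and adjoining GC boxes may share bases.
Sirt1: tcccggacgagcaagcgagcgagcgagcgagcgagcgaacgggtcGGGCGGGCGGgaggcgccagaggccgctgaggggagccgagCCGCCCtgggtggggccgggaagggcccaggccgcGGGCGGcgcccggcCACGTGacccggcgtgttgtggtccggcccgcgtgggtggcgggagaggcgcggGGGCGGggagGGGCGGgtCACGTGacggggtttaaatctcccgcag
Kat8: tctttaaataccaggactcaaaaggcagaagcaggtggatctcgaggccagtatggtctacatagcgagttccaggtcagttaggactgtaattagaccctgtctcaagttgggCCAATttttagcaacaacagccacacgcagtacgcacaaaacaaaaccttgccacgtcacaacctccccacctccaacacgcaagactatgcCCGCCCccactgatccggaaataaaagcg
The Sirt1 window held 2 E-boxes and 6 GC boxes, and the Kat8 window held 1 CCAAT box and 1 GC box. Of 32851 windows of the same length before RefSeq starts, 5.49% held an E-box, 1.37% a cAMP response element, 32.6% a CCAAT box, 5.84% the ETS motif, 1.95% the NRF1 core and 30.6% a GC box. Of the 30 members with a window in the table, 3 had an E-box, 0 a cAMP response element, 13 a CCAAT box, 6 the ETS motif, 2 the NRF1 core and 23 a GC box. The 32851 windows were not matched to the members by gene type or expression, so these counts do not test the members against them. A match describes the letters only, and binding was not measured.

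The readers recognise acetyl-lysine through bromodomains. Brd2 and Brd3 belong to the BET family, which links acetylated histones to transcription elongation. Brd2 read 14.4, 20.9 and 26.9 FPKM in the controls and 19.7, 15.9 and 19.9 in the knockouts, and the control values enclosed those of the knockouts. Brd3 (chromosome 2, 27445579 to 27507662) read 2.15, 3.35 and 2.69 FPKM against 3.74, 2.71 and 3.06. The groups of Brd3 overlapped, and limma gave it a log2 fold change of 0.16 ± 0.19 (0.07 relative to the median gene) with an adjusted p of 0.863. It was 0.049 without control replicate 1, 0.068 without knockout replicate 1 and 0.281 without control replicate 2.

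BRD7 and BRD9 are subunits of SWI/SNF chromatin remodellers, BRD7 of the PBAF form and BRD9 of the non-canonical form. Brd9 (chromosome 13, 73937811 to 73960895) read 2.13, 2.11 and 2.15 FPKM in the controls and 2.18, 3.16 and 2.17 in the knockouts. The groups did not overlap, but knockout replicates 1 and 3 lay just above the control values and replicate 2 alone stood out. The means were 2.13 ± 0.0207 and 2.50 ± 0.566 FPKM (SD, n = 3), and limma gave it a log2 fold change of 0.15 ± 0.18 (0.05 relative to the median gene) with an adjusted p of 0.863. It was 0.020 without knockout replicate 2. Brd7 read 8.23, 7.83 and 7.61 FPKM in the controls and 7.55, 8.14 and 6.81 in the knockouts, with overlap. Over the 4 readers the median log2 fold change was 0.04, with 2 positive and 2 negative, and -0.10, again with 2 positive and 2 negative, after median-ratio scaling.

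The low reading of control replicate 1 went with gene length. Lengths are those implied by the deposited values. All 10 tested members with a length of at least 5000 bases (Ep300, Crebbp, Kat2b, Kat6a, Kat7, Ncoa1, Ncoa2, Ncoa3, Brd2 and Brd3) had their lowest value of the 6 libraries in control replicate 1. Their median deviation of log2(FPKM + 1) in that library from the other control libraries was -0.88. The 2474 tested genes of that length had a median deviation of -0.51, and 1885 of them were lowest in that library. Among the 20 shorter members 5 were lowest in it and the median deviation was 0.03, and among the 7344 shorter genes 3313 were lowest and the median was -0.17.

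Across the 30 tested members the deviation had a Spearman rho of -0.57 with length, and across all 9818 tested genes one of -0.42. These are descriptions across genes of 1 library. Most of the long members are writers, so the length of a gene and its role go together here. The median log2 fold change of the 10 long members was 0.12 as deposited, -0.12 without control replicate 1, and 0.01 after a loess correction for length. That of the 20 shorter members was -0.02, 0.02 and -0.14 in the same order.

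**Figure D4:**
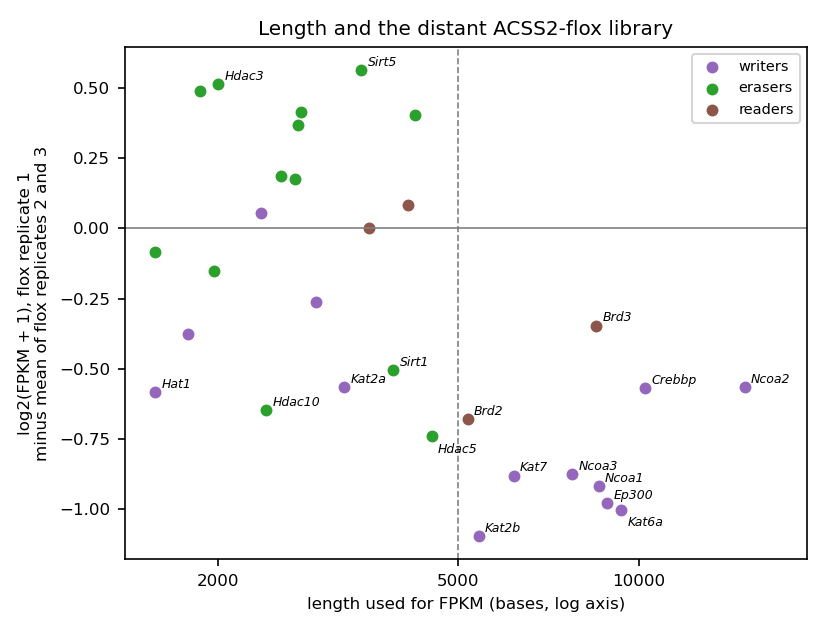
Deviation of control replicate 1 from the mean of control replicates 2 and 3, as log2(FPKM + 1), against the length behind the FPKM value (bases, log axis), for the 30 tested genes coloured by role. The dashed line marks 5000 bases. The 10 genes to its right all lie below 0, with a median of -0.88, and the 20 to its left spread around a median of 0.03.

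The 6 members under 1 FPKM were Hdac4, Hdac7 and Hdac9 of class IIa, the X-linked class I gene Hdac8, the MYST gene Kat6b and the nuclear sirtuin gene Sirt6. Sirt6 read 0.810, 0.811 and 0.681 FPKM in the controls and 0.807, 1.10 and 0.713 in the knockouts. Hdac7 read 0.461, 0.828 and 1.11 FPKM against 1.19, 0.801 and 1.21, and Hdac4 read 0.222, 0.327 and 0.519 FPKM against 0.339, 0.357 and 0.373. In each of these 3 the groups overlapped. Hdac8 read 0.213 to 0.364 FPKM in the controls and 0.232 to 0.360 in the knockouts, and Kat6b 0.0946 to 0.371 and 0.186 to 0.212. Hdac9, a class IIa gene, had 31, 35 and 62 fragments in the controls and 69, 55 and 220 in the knockouts, and its highest count was that of knockout replicate 3. With voom on genes of at least 10 fragments, chosen after the data were seen, the log2 fold change of Hdac9 was 1.20 ± 0.60 with an unadjusted limma p of 0.081 and an adjusted p of 0.679. Its 95% interval of -0.18 to 2.57 was the only one among the members that reached above 2 on that scale.

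For 4 of these 6 genes the low FPKM went with a long divisor. The length behind the deposited value was 17124 bases for Hdac8, where the longest coding transcript in GENCODE M21 has 1936, and 37946 against 7699 for Kat6b, 22138 against 8100 for Hdac4 and 21627 against 7940 for Hdac9. No other member had a length over 2 times that of its longest coding transcript, and the median ratio of the 36 was 1.12. Divided by the transcript length instead, 34 members had a mean of at least 1. Hdac8 then read 2.66 and moved from rank 34 to rank 29 of the 36, Kat6b read 1.09, and Hdac4 and Hdac9 stayed under 1, at 0.973 and 0.263. These readings keep all fragments counted over the deposited length, so they may include fragments from outside that transcript. Which transcripts the liver uses was not tested.

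**Figure D5:**
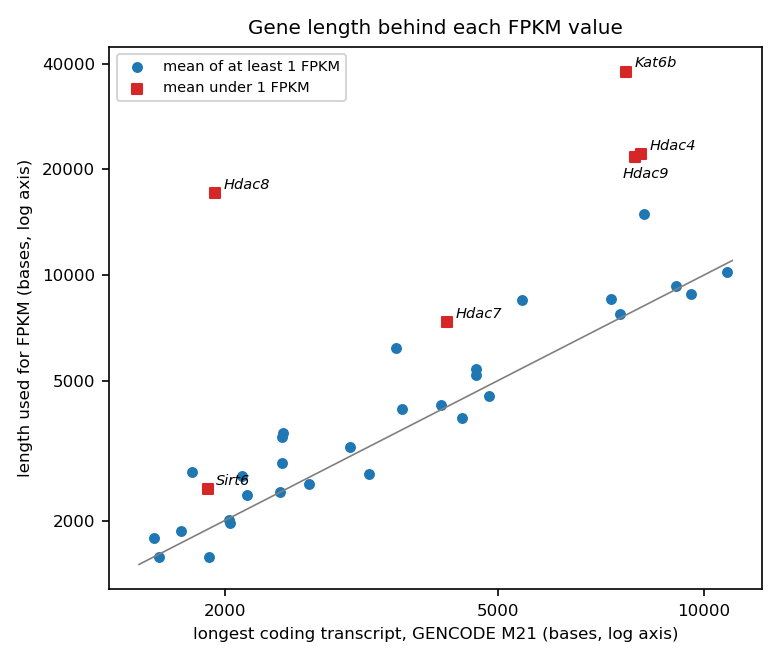
Length implied by the deposited FPKM values against the longest coding transcript in GENCODE M21 (both in bases, log axes) for the 36 genes. The line marks equal lengths, blue circles are genes averaging 1 FPKM or more and red squares the 6 below it. Hdac8, Kat6b, Hdac4 and Hdac9 lie more than 2-fold above the line.

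The partners of these enzymes were read from lists of the complexes and supply pathways, and no list had a gene past the adjusted threshold. Of 48 tested subunits of acetyltransferase complexes (SAGA, ATAC, NuA4, MSL and related), 31 were positive and 17 negative with a median of 0.08, and 17 and 31 with a median of -0.04 after median-ratio scaling. Of all 9818 genes tested, 6483 were positive and 3335 negative as deposited, and 4331 and 5487 after that scaling. Supt20, a SAGA subunit, read 2.21, 2.29 and 2.79 FPKM in the controls and 3.11, 3.70 and 3.37 in the knockouts, without overlap. The log2 fold changes of Supt20, the HBO1 complex gene Jade2 and the ATAC gene Tada2a were 0.36 ± 0.17, 0.41 ± 0.21 and 0.29 ± 0.17, with limma adjusted p of 0.664, 0.673 and 0.687. These 3 were among 4 of the 48 (8.33%) that read higher in every knockout library, and 0 of the 48 read lower in every one, where the shares of all genes were 12.5% and 2.94%. After scaling 1 of the 48 read higher and 3 lower in every one, where the shares of all genes were 6.37% and 7.65%. As deposited, at an unadjusted p under 0.05 the count was 0, where 6.09% of all genes were higher and 1.5% lower. Jade2 was 0.208 without control replicate 1.

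The 37 tested subunits of deacetylase corepressor complexes had 27 positive and 10 negative, with a median of 0.08, which turned to 12 and 25, with a median of -0.05, after median-ratio scaling. Their smallest p-values belonged to the NuRD gene Mbd3 (0.22 ± 0.17), the histone demethylase gene Kdm1a (0.27 ± 0.21) and the NCoR complex gene Gps2 (-0.20 ± 0.18). Of the 37, 0 had an unadjusted p under 0.05 or groups that did not overlap, as deposited or after scaling. At that p, 6.09% of all genes were higher and 1.5% lower as deposited, and 3.23% and 3.53% after scaling. The shares of all genes without overlap were 12.5% higher and 2.94% lower as deposited, and 6.37% and 7.65% after scaling. Kdm1a was 0.078 without control replicate 1, and Mbd3 was 0.126 without knockout replicate 2. Other acetyl-lysine readers, 26 tested, had 20 positive and 6 negative, with a median of 0.05, and 9 and 17, with a median of -0.06, after scaling. Among them Zmynd8 (0.29 ± 0.17) and Brpf1 (0.27 ± 0.18) read higher in every knockout library, the only 2 of the 26 (7.69%, where the share of all genes was 12.5%), and 0 read lower in every one. After scaling 0 of the 26 read higher and 0 lower in every one, where the shares of all genes were 6.37% and 7.65%. Baz2a (0.28 ± 0.20, and 0.115 without control replicate 1) overlapped. The 15 tested other acetyltransferases had 6 positive and 9 negative, with a median of -0.04, and 3 and 12, with a median of -0.19, after scaling. As deposited 1 of the 15 (6.67%) read higher and 0 lower in every knockout library, where the shares of all genes were 12.5% and 2.94%. After scaling 1 read higher and 3 lower, where the shares were 6.37% and 7.65%. Clock, which encodes the circadian transcription factor with reported acetyltransferase activity, read 1.09, 3.21 and 3.49 FPKM in the controls and 3.53, 4.49 and 3.51 in the knockouts. The fit gave 0.50 ± 0.30 on the log2 scale, at a limma adjusted p of 0.697. It was the largest of its list, its lowest value was that of control replicate 1, and without that library it was 0.148.

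The co-substrates, acetyl-CoA and NAD, had lists of their own. Genes that supply acetyl-CoA had 2 positive and 10 negative of 12 tested, with a median log2 fold change of -0.29, and 0 positive and 12 negative, with a median of -0.44, after scaling, where the medians of all genes were 0.10 and -0.04. As deposited Acss2 itself was the only one with an unadjusted p under 0.05 (1 lower, where 1.5% of all genes were). After scaling there were 2 (where 3.53% of all genes were lower), Acss2 and Slc25a1, with an adjusted p of 0.711 for both. The same 2 of the 12 (16.7%) read lower in every knockout library as deposited, where the share of all genes was 2.94%, and 0 read higher. Acss2 is the gene that the genotype labels name, so its direction was set by the design. Every count of negative or lower genes in this list includes it, and as deposited Slc25a1 was the only other without overlap. After scaling 3 read lower and 0 higher in every one, where the shares of all genes were 7.65% and 6.37%. Slc25a1, the mitochondrial citrate carrier gene, which exports the citrate that ACLY splits into acetyl-CoA, read 175, 173 and 168 FPKM in the controls and 136, 152 and 111 in the knockouts. Its groups did not overlap, and limma gave it a log2 fold change of -0.38 ± 0.18 with an adjusted p of 0.668. Acat1, the mitochondrial acetoacetyl-CoA thiolase gene, had a fold change of -0.38 ± 0.24 with overlap, and -0.183 without knockout replicate 3.

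Genes that make or use NAD, the co-substrate of the sirtuins, had 12 positive and 7 negative of 19 tested, with a median of 0.17, and 10 and 9, with a median of 0.02, after scaling. Nnmt, which encodes the enzyme that methylates nicotinamide and so withdraws it from NAD synthesis, read 30.2, 45.2 and 39.1 FPKM in the controls and 54.4, 62.4 and 57.9 in the knockouts. Its groups did not overlap, and the log2 fold change was 0.61 ± 0.19 with an unadjusted limma p of 0.013 and an adjusted p of 0.637. It was the only call of the 19 at that unadjusted threshold as deposited, where 6.09% of all genes were higher. After scaling there were 3 of the 19, where 3.23% of all genes were higher and 3.53% lower. Nnmt was higher (0.45 ± 0.18). Nampt, the rate-limiting enzyme gene of NAD salvage, and the mitochondrial NAD kinase gene Nadk2 were lower (-0.53 ± 0.19 and -0.53 ± 0.22). Each of the 3 had a limma adjusted p of 0.711. As deposited 4 of the 19 (21.1%) read higher and 2 (10.5%) lower in every knockout library, where the shares of all genes were 12.5% and 2.94%. After scaling 1 read higher and 3 lower in every one, where the shares of all genes were 6.37% and 7.65%. The NAD glycohydrolase gene Cd38 (0.57 ± 0.28) and Haao (-0.43 ± 0.21), a gene of NAD synthesis from tryptophan, overlapped between the groups as deposited, and were 0.288 and -0.262 without control replicate 1.

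Marker genes of other liver cells also differed between the libraries. The summed FPKM of 10 hepatocyte markers ran from 59928 to 95549 in the controls and from 50928 to 58723 in the knockouts, with 1 marker higher by its mean in the knockouts. The highest sum was that of control replicate 1, where Alb alone read 59759, and the other control sums were 63150 and 59928. Not all markers were high in that library: Cps1 (382) and Hnf4a (102) had their lowest values there. All 13 Kupffer cell and macrophage markers had higher means in the knockouts, with sums of 473 to 771 against 895 to 2203. The same held for all 13 neutrophil markers, whose sums were 8.46 to 18.2 in the controls and 39.9 to 363 in the knockouts. Only 5 of these 13 averaged 1 FPKM or more, and S100a8 (138) and S100a9 (177) made up most of the highest sum. In knockout replicate 3, the library with the highest neutrophil sum (363) and the lowest hepatocyte sum (50928), Sirt3, Sirt1 and Hdac11 had their lowest values. So did Kat8, Naa60, Hdac2, Sirt4, Sirt5 and Brd7 among the tested members, whereas Ep300, Ncoa3, Kat7 and Hdac1 had their highest values there. In control replicate 1, where the long writers were lowest, the sum of 12 sinusoidal endothelial markers was 70.8, against 240 and 288 in the other control libraries and 189 to 228 in the knockouts. The part of the cell mix in the member values was not tested.

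Sums for stellate cell and fibroblast markers were 178 to 238 and 172 to 276, for cholangiocyte markers 26.1 to 56.6 and 35.1 to 71.2, and for erythroid markers 465 to 1272 and 463 to 623. T and NK cell markers summed to 5.11 to 10.2 and 6.59 to 17.6, and B and plasma cell markers to 4.005 to 6.53 and 7.67 to 13.0. Of the markers found, 0 were at 0 in all libraries, and the hepatocyte, macrophage, neutrophil and B and plasma cell sums did not overlap between the genotypes.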

How the data were processed

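RNA-seq of whole liver was used in 6 libraries, 3 per genotype, grouped by the genotype label as controls (ACSS2-flox) and knockouts (ACSS2-HKO). Per the labels' protocols, the VAHTS Universal V6 kit was used for library construction. The deposited values are FPKM computed by the authors, 1 per gene and library. Of the authors' steps, the submitters' processing notes list mm10 and DESeq2 and give no role for either. The sources used here name no aligner, counter, strand setting or annotation. Each value is a whole fragment number divided by 1 length per gene and 1 total per library, and testing whole-number lengths and totals returned whole counts (within 0.01) for 16135 genes, 100% of the table.

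Genes averaging 1 FPKM or more were tested as log2(FPKM + 1) with limma 3.58.1 in R 4.3.3 (eBayes with a trend), two-sided, with Benjamini-Hochberg adjustment over all 9818 genes. An exact permutation test over 20 arrangements was added for single genes and ratios. Tables and figures were made with Python 3.11.15. The fit was tested on simulated data. Gene positions and transcript lengths are from GENCODE M21 (GRCm38) and promoters from RefSeq. A promoter was found for 30 of the 36 genes.

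A gene was given with its fit where its groups did not overlap, its unadjusted p was under 0.05, or it had the largest difference of its role group. Of each pathway list, up to 3 genes of smallest p were named. Kat2b without control replicate 1, Psmd13, Hdac9, Nampt and Nadk2 lie outside that rule and were chosen after their values were seen. The members and lists were chosen with earlier results of these data known. Alternatives covered 3 other scalings, pseudocounts of 0.1 and 5, a filter of 5 FPKM or none, the variance trend, voom, a loess length correction (span 0.5), array weights, the replicate number as a block, and libraries left out. Voom on genes with a mean of at least 10 fragments was added after the data were seen. The libraries held 33717125 to 39474527 fragments; Hdac9 had 31 to 220 in each and Hdac10 135 to 342.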

Additional observations from a re-analysis of the deposited data

How the results depend on the processing

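The count of genes past the adjusted threshold was 0 as reported and under all alternatives except the replicate block, which gave 4, and the fit without knockout replicate 2, which gave 3 (leave-one-out range 0 to 3). No member was among those past it. The replicate numbers pair no animals by label: deviations of same-numbered libraries correlated at 0.013, 0.0032 and -0.063, and 0 of the 3 matched their own number best. With the replicate block 830 genes had an unadjusted p under 0.05, 79.3% of them higher.

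That count was 745 as reported, 1129 without a filter, 430 with a filter at 5 FPKM and 1135 with array weights, and it ran from 341 (without knockout replicate 3) to 968 (without control replicate 1). The share of these genes that was higher in ACSS2-HKO was 80.3% as reported, 66.3% with array weights, 50.1% with the length correction, 52.3% with quantile normalization, 47.7% with median-ratio scaling, 49.9% with trimmed means (TMM), 52.1% without control replicate 1 and 57.9% without both distant libraries. With 1 library left out the median of the members lay between -0.067 and 0.121, and it was -0.103 without both distant libraries.

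Of 274 values of single genes under alternatives, 13 reversed. With quantile normalization Hdac10 read -0.025, Brd3 -0.0057 and Brd9 -0.030, and with array weights Ep300 read -0.046 and Ncoa3 -0.094. Without both distant libraries Ep300 read -0.162, Ncoa3 -0.234 and Hdac10 -0.034. With 1 library left out Ep300 ran from -0.067 to 0.444, Ncoa3 from -0.068 to 0.380, Hdac10 from -0.078 to 0.333 and Hdac5 from -0.278 to 0.200. The cause was not tested.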
